A study of Homo sapiens with 24 samples.

Results

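The coagulation and complement genes are a list of 40 genes whose liver-made products clot blood, dissolve clots or act in the complement system, chosen by gene name from the rows of the count matrix. Of these, 38 had a row among 18915 genes, and 35 of the 12685 genes that passed the filter on low counts were members. The expression of these genes was followed by RNA-Seq in HepG2 cells, a human hepatoma line that still makes many plasma proteins. The same cells served in every group, so all statements concern 1 tumour line and not liver tissue. *F13B*, *C9* and *SERPING1*, with 8, 8 and 21 reads summed over the 24 libraries, did not pass the filter, and *F9* and *PLG* were not analysed here.

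The cells were kept for 10 h in fresh growth medium that held only the vehicle DMSO or 1 of 5 treatments, with 4 replicate libraries per group. These were bortezomib at 50 nM, the same bortezomib with 20 µM nelfinavir or with 50 nM ISRIB, and nelfinavir or ISRIB on their own at these doses. Bortezomib inhibits the proteasome. Nelfinavir, an HIV protease inhibitor, raises phosphorylated eIF2α and with it the transcription factor ATF4, and ISRIB makes translation insensitive to phosphorylated eIF2α. The question put by the design was how each of these drugs changed the response to bortezomib. The labels call the replicates biological but do not say how the cultures were kept apart, so the p-values measure the spread between these libraries. Levels are given in CPM, read counts scaled to a common library size with TMM factors. A gene is called changed where the adjusted p of edgeR's quasi-likelihood test, computed over all 12685 genes, was below 0.05, and a log2 fold change is given with its standard error (SE).

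Coagulation is a cascade of plasma proteases and cofactors that ends in thrombin, which turns fibrinogen, built of an Aα, a Bβ and a γ chain, into a fibrin clot. Antithrombin, heparin cofactor II, the protein C system and tissue factor pathway inhibitor hold the cascade in check, and fibrinolysis removes the clot. Complement is started by C1 or by lectins such as *MBL2*, is amplified by the *C3* and *C5* convertases, and ends in the membrane attack complex, with factor I and C4b-binding protein among its brakes. Hepatocytes secrete most of these proteins through the endoplasmic reticulum, and several, fibrinogen and *C3* among them, are classical acute-phase proteins whose promoters are controlled by liver factors of the HNF1 and C/EBP families and by STAT3.

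The promoters of the 3 fibrinogen chains are shown because these genes lie side by side on chromosome 4 and were all lower with bortezomib. That of *KNG1* is shown because it had the largest called fall with bortezomib. *C1S*, which had the largest called rise, had no promoter entry. The genes for the chains occupy 155484163 to 155493959 (*FGB*, plus strand), 155504278 to 155511894 (*FGA*, minus strand) and 155525286 to 155534119 (*FGG*, minus strand) of chromosome 4 in GRCh37, the build of the counts. The promoter windows, from RefSeq on GRCh38.p14, reach from 250 bases before to 50 bases after the start of transcription and are written 5′ to 3′ on the strand of the gene. Capitals mark matches on either strand to the HNF1 word GTTAAT, to the C/EBP word TTGCNNAA and to the STAT word TTCNNNGAA. The windows are chr4:154590693-154590992 (*FGA*, minus strand), chr4:154562730-154563029 (*FGB*, plus strand, the first of 2 windows listed), chr4:154612607-154612906 (*FGG*, minus strand) and chr3:186717109-186717408 (*KNG1*, plus strand).
FGA: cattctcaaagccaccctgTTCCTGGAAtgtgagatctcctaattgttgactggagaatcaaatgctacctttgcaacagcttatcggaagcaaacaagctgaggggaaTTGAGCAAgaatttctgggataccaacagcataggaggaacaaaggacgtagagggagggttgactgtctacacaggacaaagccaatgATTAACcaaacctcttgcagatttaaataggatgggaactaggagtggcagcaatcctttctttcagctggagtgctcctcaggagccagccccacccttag
FGB: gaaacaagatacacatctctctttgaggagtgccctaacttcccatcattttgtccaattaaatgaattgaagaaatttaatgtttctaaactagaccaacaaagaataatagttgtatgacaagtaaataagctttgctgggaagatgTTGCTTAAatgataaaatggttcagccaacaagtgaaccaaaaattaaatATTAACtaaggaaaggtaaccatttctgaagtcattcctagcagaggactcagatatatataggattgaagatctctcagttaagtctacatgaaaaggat
FGG: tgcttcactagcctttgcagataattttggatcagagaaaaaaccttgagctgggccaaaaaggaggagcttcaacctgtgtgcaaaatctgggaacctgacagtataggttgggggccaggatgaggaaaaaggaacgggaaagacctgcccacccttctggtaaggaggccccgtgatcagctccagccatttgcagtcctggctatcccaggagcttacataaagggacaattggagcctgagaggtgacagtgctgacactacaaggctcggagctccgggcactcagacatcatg
KNG1: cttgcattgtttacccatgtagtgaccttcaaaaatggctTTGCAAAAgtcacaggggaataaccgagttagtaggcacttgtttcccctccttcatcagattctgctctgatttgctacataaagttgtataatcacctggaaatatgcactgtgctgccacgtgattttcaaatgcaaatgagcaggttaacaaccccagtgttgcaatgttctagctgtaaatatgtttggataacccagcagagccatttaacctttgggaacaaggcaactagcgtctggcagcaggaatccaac
The *FGA* and *FGB* windows each held an HNF1 word close to the start, at positions -52 and -51 (the leftmost base, counted from the start of transcription), and a C/EBP word further upstream, at -141 and -101. *FGA* also held a STAT word at -231, *KNG1* held a C/EBP word at -210, and these letters were not found in the *FGG* window. Promoters were matched for 33 of the 40 members. The HNF1 word lay in 36.4% of the members' promoters and in 8.27% of the promoters of 27305 genes, the STAT word in 36.4% and 9.38%, and the C/EBP word in 30.3% and 12.7%. The ATF4-type composite word TGATGNAA lay in the promoters of *MBL2* and *C4BPA*, which is 6.06% of the members and 4.46% of all genes, and TGACGTGG, the unfolded-protein response word, in 0% and 0.927%. HNF4 (CAAAGTCCA) and NF-κB (GGGANTTTC) words were found in the promoter of *F10* alone among the members, 3.03%, against 0.472% and 1.56% of all genes. A match describes the letters only.

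Library totals ran from 5154533 to 6943164 counts, and 23 of the 35 tested members were above the count minimum in every library of all 6 groups. The other 12 (*F12*, *KLKB1*, *KNG1*, *C1R*, *C1S*, *MBL2*, *MASP1*, *CFB*, *C6*, *C8A*, *C8B* and *C8G*) fell to a few reads in some group, and *MASP1* reached the minimum in all 4 libraries of nelfinavir alone. All 7 hepatocyte markers listed, albumin among them, were above 1 CPM in every group, and their summed level was 11336 to 12587 CPM in DMSO, 8355 to 8889 CPM in bortezomib and 5385 to 6867 CPM in bortezomib with nelfinavir. The share of mitochondrially encoded reads was 21.5% ± 1.32 in DMSO and 33.8% ± 1.20 in bortezomib (SD, n = 4), 27.2% ± 2.26 when nelfinavir was added and 36.1% ± 3.13 when ISRIB was added, and the TMM factors ran from 1.19 to 1.24 in DMSO and from 0.846 to 0.869 in bortezomib. The libraries with bortezomib and nelfinavir fell into 2 pairs, the first with the second and the third with the fourth: the chi-square per degree of freedom between their counts was 3.99 and 7.30 within these pairs and 13.2 to 20.3 across them. In bulk RNA, fewer cells making a transcript and less transcript per cell cannot be told apart.

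In DMSO, mean levels of the tested members ran from 0.122 ± 0.165 CPM for *C6* to 676 ± 54.9 CPM for *A2M*. All 38 genes together stood at 4333 ± 298 CPM in DMSO, 4210.4 ± 64.2 CPM in ISRIB and 5113 ± 257 CPM in nelfinavir. They stood at 3705 ± 106 CPM in bortezomib, 3582 ± 136 CPM in bortezomib with ISRIB and 3003 ± 114 CPM in bortezomib with nelfinavir (mean ± SD, n = 4 each). The sums by role did not all move alike. That of the anticoagulants is largely *TFPI*, which held on average 445 of its 680 CPM in DMSO. The fibrinogen chains and the anticoagulants were lower in all 3 bortezomib groups than in DMSO, whereas the convertase components, which are mostly *C3*, were higher. The last holds for TMM-scaled levels: as a share of all counts, the convertase components were 0.0701% in DMSO, 0.0708% in bortezomib, 0.0589% with added nelfinavir and 0.0674% with added ISRIB, while the other 2 sums were lower on that scale too.

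**Figure D1:**
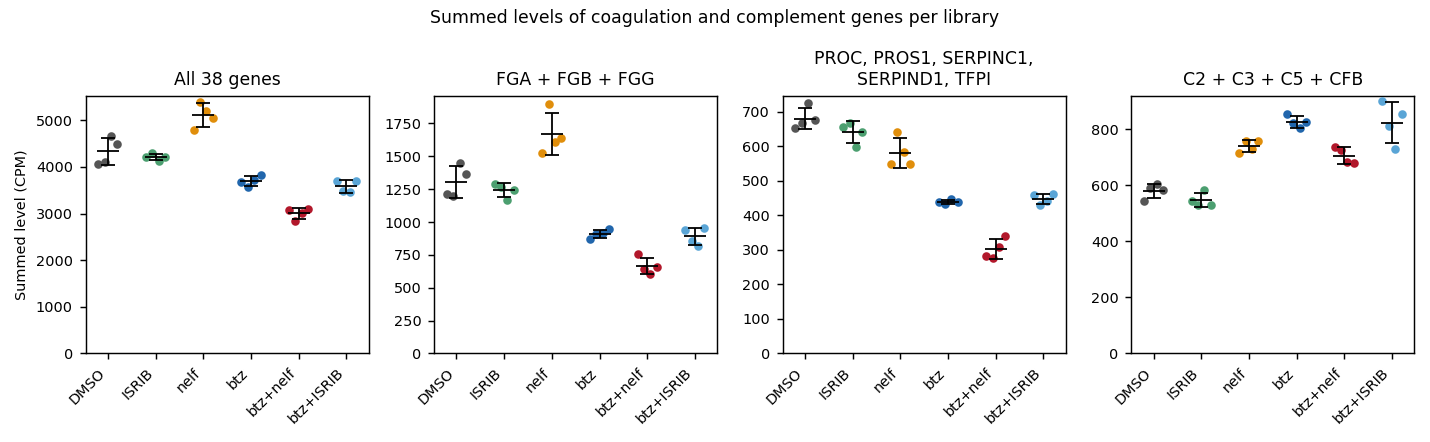
Summed TMM-scaled levels (CPM, linear axis from 0) per library in the 6 treatment groups, for all 38 genes, the 3 fibrinogen chains, 5 anticoagulants and 4 convertase components (btz, bortezomib; nelf, nelfinavir). Points are libraries, bars the mean ± SD of 4; for all 38 genes the lowest sums are those of bortezomib with nelfinavir and the highest those of nelfinavir alone.

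Bortezomib lowered more of these genes than it raised. With 50 nM bortezomib, 16 members were lower than in DMSO and 5 were higher, against 25.8% and 27.6% of all genes tested. More than 2-fold changes were called for 9 members downwards and 1 upwards, against 12.2% and 10.3% of all genes. All DMSO and bortezomib libraries were separate for 15 lower and 4 higher members, against 24.4% and 25.6% of all genes. The members' median log2 fold change was -0.25, beside 0.00 for all genes. Lower members were found among the fibrinogen chains (3 of 3), the anticoagulants (3 of 5) and the soluble complement regulators (3 of 3), and 3 of the 5 higher members were the convertase components *C2*, *C3* and *C5*. These directions depend on the scaling. When libraries were scaled by total counts alone, the median of all genes shifted by -0.50, 1 member was higher and 21 were lower, and of the 5 higher members only *C1S* was still called.

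Among the fibrinogen chains, the substrate of thrombin, *FGA* read 206, 188, 233 and 218 CPM in DMSO and 123, 114, 142 and 109.8 CPM in bortezomib (log2 fold change -0.79, SE 0.13, adjusted p = 3.91e-06). *FGG* read 408, 418, 511 and 493 CPM in DMSO and 238, 238, 259 and 277 CPM in bortezomib (log2 fold change -0.85, SE 0.19, adjusted p = 0.000298). *FGB*, at 596, 594, 703 and 654 CPM in DMSO and 510.1, 554, 516 and 558 CPM in bortezomib, fell much less (log2 fold change -0.25, SE 0.08, adjusted p = 0.00494). For each chain all 4 bortezomib libraries lay below all 4 DMSO libraries, although the gap for *FGB* was narrow.

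Among the clotting factors, *F10*, the protease that activates prothrombin, fell (log2 fold change -0.51, SE 0.12, adjusted p = 0.000562), and so did *F11* of the contact pathway (log2 fold change -0.54, SE 0.17, adjusted p = 0.00754). *F2* (prothrombin), *F5* (the cofactor of factor Xa) and *F7* (the protease that pairs with tissue factor) had log2 fold changes of -0.04 ± 0.10, 0.05 ± 0.10 and 0.24 ± 0.20 (± SE) and were not called. *KNG1* encodes high-molecular-weight kininogen, the cofactor of the contact system and the source of bradykinin. It read 1.63, 1.43, 1.54 and 1.96 CPM in DMSO and 0.428, 0, 0.422 and 0 CPM in bortezomib (log2 fold change -2.86, SE 0.75, adjusted p = 0.00121). The groups did not overlap, but *KNG1* was scarce: the DMSO libraries held 14, 11, 11 and 16 reads and the bortezomib libraries 2, 0, 2 and 0.

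The anticoagulants split. *TFPI*, the inhibitor of the tissue factor-factor VIIa complex, read 433, 445, 469.6 and 431 CPM in DMSO and 205, 198, 217 and 182 CPM in bortezomib (log2 fold change -1.15, SE 0.09, adjusted p = 1.95e-12). *SERPIND1* (heparin cofactor II, an inhibitor of thrombin) read 42.1, 41.3, 51.6 and 53.7 CPM and 19.5, 20.6, 18.8 and 24.4 CPM (log2 fold change -1.18, SE 0.17, adjusted p = 3.56e-07), and *PROS1* (protein S) fell less (log2 fold change -0.45, SE 0.14, adjusted p = 0.00971). All 3 were lower in every bortezomib library than in any DMSO library. *PROC*, which encodes protein C, went the other way, from 104, 107, 115 and 109.6 CPM to 145, 147, 142 and 160.1 CPM (log2 fold change 0.45, SE 0.12, adjusted p = 0.00168), again without overlap. *SERPINC1* (antithrombin) was not called (log2 fold change 0.06 ± 0.12). *PROC* and *SERPINC1*, and *F5* and *F7* among the clotting factors, turned negative when libraries were scaled by total counts alone. *CPB2* encodes the carboxypeptidase that protects fibrin from plasmin (TAFI). It read 39.97, 39.7, 45.9 and 44.2 CPM in DMSO and 5.77, 5.62, 6.97 and 14.5 CPM in bortezomib, a 5.19-fold fall (log2 fold change -2.38, SE 0.22, adjusted p = 5.32e-11). The fourth bortezomib library stood above the other 3 but well below DMSO. *SERPINF2* (α2-antiplasmin), *VTN* (vitronectin) and *A2M* (α2-macroglobulin) had log2 fold changes from -0.11 to 0.20 and were not called. Scaled by total counts alone, *SERPINF2* (-0.61) and *A2M* (-0.53) were called lower (adjusted p = 2.19e-05 and 1.86e-06, edgeR).

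In complement, *C3*, the central component, read 449, 492, 492 and 491 CPM in DMSO and 733, 706, 676 and 679.9 CPM in bortezomib (log2 fold change 0.54, SE 0.08, adjusted p = 2.80e-07). *C5* rose from 61.7, 55.97, 67.3 and 58.8 CPM to 82.6, 73.7, 74.6 and 89.3 CPM (log2 fold change 0.39, SE 0.10, adjusted p = 0.00126), and *C2*, the protease of the classical convertase, from 31.6, 39.2, 43.7 and 33.2 CPM to 37.4, 40.7, 52.2 and 57.1 CPM (log2 fold change 0.34, SE 0.13, adjusted p = 0.0277). The groups were separate for *C3* and *C5* and overlapped for *C2*, whose call was lost in 9 of 17 settings, among them RLE and upper-quartile scaling, no filter and 5 that left out 1 library (adjusted p from 0.0516 to 0.318, edgeR). Without the fourth bortezomib library its log2 fold change was 0.18. *C1S*, the protease of the C1 complex, rose 2.99-fold, from 4.18, 3.51, 3.64 and 4.66 CPM to 11.8, 10.5, 12.7 and 13.2 CPM (log2 fold change 1.58, SE 0.30, adjusted p = 4.37e-05). Its partner *C1R* did not pass the test (log2 fold change -0.10 ± 0.39). Among 4 stellate or fibroblast markers, *ACTA2* rose with bortezomib as *C1S* did (1.47, SE 0.13), the summed level of the list being 26.6 to 38.4 CPM in DMSO and 75.4 to 105 CPM in bortezomib, while *COL1A1* was at 0 in both groups. The part of this in the *C1S* result was not tested.

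The lectin *MBL2*, which starts complement on sugars of microbes, fell from 4.997, 3.77, 5.598 and 5.88 CPM to 0, 0.776, 0.422 and 1.94 CPM, or 0, 4, 2 and 9 reads (log2 fold change -2.66, SE 0.52, adjusted p = 4.60e-05). *C4BPB*, the β chain of C4b-binding protein, which slows the classical convertase and carries protein S, read 96.3, 96.8, 109 and 114 CPM in DMSO and 34.2, 28.3, 45.2 and 38.3 CPM in bortezomib (log2 fold change -1.51, SE 0.11, adjusted p = 8.44e-14). Both genes were far below DMSO in every bortezomib library. The α chain *C4BPA* fell as well (log2 fold change -0.70, SE 0.21, adjusted p = 0.00511), and *CFI*, the protease that cleaves C3b and C4b, read 136, 139, 159 and 165 CPM and 72.9, 68.8, 68.9 and 75.6 CPM (log2 fold change -1.06, SE 0.11, adjusted p = 5.70e-10). Of the terminal components, *C8G* read 1.39, 1.43, 1.26 and 1.59 CPM and 0.855, 0.194, 0 and 0.648 CPM (log2 fold change -1.72, SE 0.69, adjusted p = 0.0303). *C8A* read 2.32, 3.12, 3.36 and 3.92 CPM and 1.497, 0, 1.901 and 1.297 CPM (log2 fold change -1.44, SE 0.52, adjusted p = 0.0178). These low values rest on 0 to 9 reads per bortezomib library, and the bortezomib libraries still lay below all DMSO libraries. The call of *C8G* was lost without the second or the third bortezomib library or the fourth of DMSO, and that of *C8A* without the second bortezomib library (adjusted p from 0.0539 to 0.0879, edgeR). *C8B* was not called (0.05 ± 0.63).

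**Figure D2:**
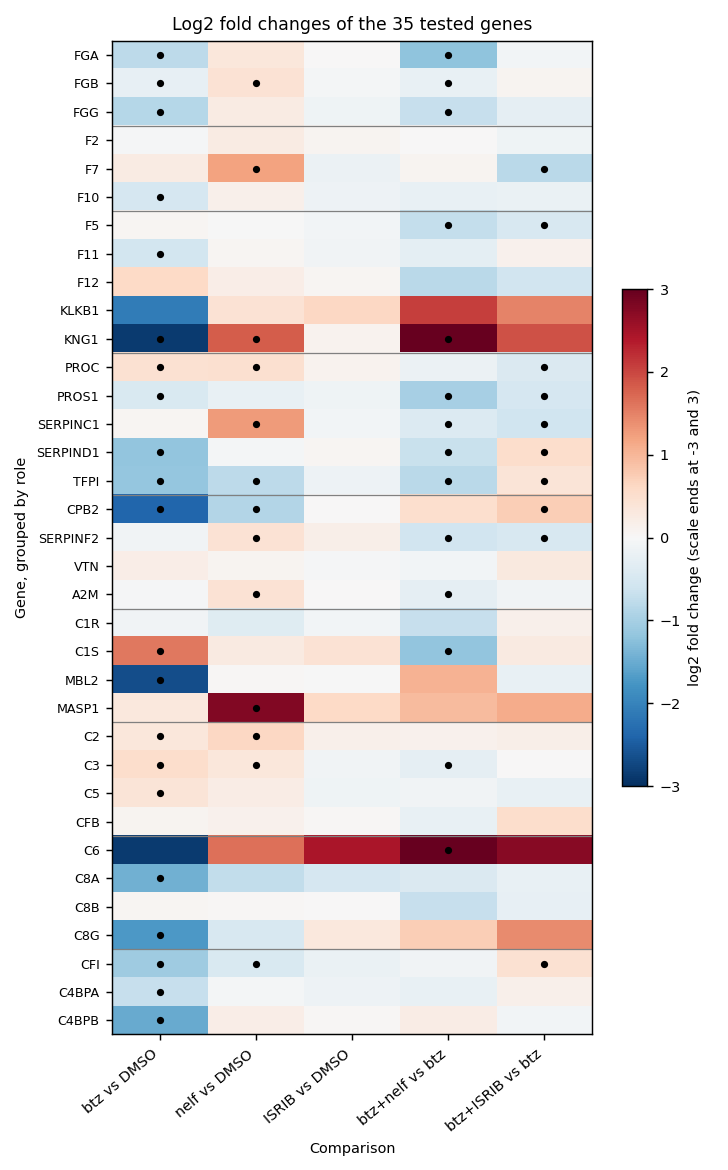
Log2 fold changes of the 35 tested genes (rows, grouped by role) in 5 comparisons (columns; btz, bortezomib; nelf, nelfinavir), from blue (lower) to red (higher) with the scale ending at -3 and 3. Dots mark adjusted p below 0.05 (edgeR): 21 genes in the bortezomib column, 13 for nelfinavir, 0 for ISRIB, 14 on adding nelfinavir to bortezomib and 10 on adding ISRIB; the values of *C6* rest on few reads.

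Nelfinavir alone raised more of the genes than it lowered. At 20 µM, 10 members were higher than in DMSO and 3 were lower, against 10.4% and 8.84% of all genes, and their median log2 fold change was 0.21, beside 0.01 for all genes. More than 2-fold increases were called for 4 members (*MASP1*, *KNG1*, *SERPINC1* and *F7*), against 1.99% of all genes. *MASP1* held only 12 reads over the 4 DMSO libraries, and without it 9 members were higher, 3 of them more than 2-fold. Without overlap of the libraries, 12 members were higher and 3 lower, against 15.6% and 14% of all genes. The same DMSO libraries served here and for bortezomib. Of the cell type markers, HNF4A (0.58, SE 0.11) and *ACTA2* (0.43, SE 0.13) were higher with nelfinavir and EPCAM (-0.32, SE 0.10) was lower. No other hepatocyte marker was called, and the part of these changes in those of the members was not tested.

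*MASP1*, the protease of the lectin pathway, rose from few reads (log2 fold change 2.77, adjusted p = 0.000489). It read 0.813, 0.1302, 0.13996 and 0.368 CPM in DMSO, or 7, 1, 1 and 3 reads, and 2.03, 2.71, 3.37 and 2.596 CPM in nelfinavir. *KNG1* rose to 4.18, 5.29, 7.66 and 6.36 CPM (log2 fold change 1.82, SE 0.43, adjusted p = 0.00206). Antithrombin (*SERPINC1*) read 33.2, 36.4, 40.6 and 35.2 CPM in DMSO and 80.9, 89.8, 84.4 and 95.9 CPM in nelfinavir (log2 fold change 1.27, SE 0.12, adjusted p = 4.00e-10), the nelfinavir libraries all holding more than any DMSO library by a wide margin. *F7* behaved alike, with 16.5, 14.8, 15.95 and 15.9 CPM in DMSO and 33.8, 35.4, 40.4 and 37.4 CPM in nelfinavir (log2 fold change 1.21, SE 0.19, adjusted p = 1.04e-05). *PROC* rose to 141, 141, 167 and 159 CPM (log2 fold change 0.48, SE 0.12, adjusted p = 0.00259). In these genes no nelfinavir library overlapped DMSO.

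Smaller rises were called for *FGB*, with 809, 918, 898 and 808 CPM in nelfinavir (log2 fold change 0.43, SE 0.07, adjusted p = 5.37e-05), *A2M* (log2 fold change 0.44, SE 0.08, adjusted p = 7.44e-05) and *SERPINF2* (log2 fold change 0.43, SE 0.11, adjusted p = 0.00598). *FGA*, at 251, 282, 285 and 249 CPM, was above all DMSO libraries but did not pass the test (log2 fold change 0.34, SE 0.13, adjusted p = 0.0561), and it did pass in 4 other settings (no filter, only these groups, the replicate block and thinned libraries, adjusted p from 0.00203 to 0.0476, edgeR). *FGG* spread widely, over 465, 697, 428 and 586 CPM, and was not called (0.25 ± 0.19). In complement, *C2* rose to 52.2, 55.4, 54.8 and 62.96 CPM (log2 fold change 0.61, SE 0.13, adjusted p = 0.000601) and *C3* to 591, 629.96, 598 and 626 CPM (log2 fold change 0.35, SE 0.07, adjusted p = 0.000846). Without overlap, 3 members fell, namely *CPB2*, to 18.4, 26.8, 26.5 and 20.1 CPM (log2 fold change -0.89, SE 0.19, adjusted p = 0.000692), *TFPI*, to 250.3, 324, 242 and 220.05 CPM (log2 fold change -0.78, SE 0.09, adjusted p = 5.26e-08), and *CFI*, to 97.8, 124, 113 and 101 CPM (log2 fold change -0.46, SE 0.11, adjusted p = 0.00171). These 3 were also lower with bortezomib, at log2 fold changes of -2.38, -1.15 and -1.06, while *KNG1* was higher with nelfinavir and lower with bortezomib.

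ISRIB alone left no member called. At 50 nM, 0 of 35 members and 0% of all genes passed edgeR's test, 1 member (*C6*) and 703 of all genes having an unadjusted p below 0.05. *C6* reached the count minimum in 3 libraries of ISRIB, 1 of nelfinavir and 0 of the other groups. It thus passed the filter through the group where it was high, and its p here is no support. DESeq2 also called 0 members and gave no adjusted p for 22 of them. The members' median log2 fold change was 0.01, beside 0.00 for all genes. The fibrinogen chains had log2 fold changes of 0.01 ± 0.13 (*FGA*), -0.06 ± 0.07 (*FGB*) and -0.12 ± 0.19 (*FGG*), with *FGA* at 211, 204, 236 and 198 CPM, around the DMSO libraries. *TFPI*, with 405, 427, 364 and 411 CPM, was below all DMSO libraries without passing the test (log2 fold change -0.15, SE 0.09, adjusted p = 1). It was the only member whose ISRIB and DMSO libraries did not overlap (0 higher, 1 lower), against 3.49% and 4.52% of all genes.

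When nelfinavir was added to bortezomib, the balance turned. Compared with bortezomib alone, 12 members were lower with both drugs and 2 were higher, against 13.4% and 15.6% of all genes, and the members' median log2 fold change was -0.23, beside -0.02 for all genes. Only *FGA* and *C1S* fell more than 2-fold, against 3.73% of all genes, *C1S* no longer so without the first library of both drugs (log2 fold change -0.77), and 10 lower and 1 higher members were free of overlap, against 9.11% and 12.4%. The lower members were the 3 fibrinogen chains, *F5*, 4 of 5 anticoagulants (*PROS1*, *SERPINC1*, *SERPIND1* and *TFPI*), *SERPINF2*, *A2M*, *C1S* and *C3*. The summed level of the 7 hepatocyte markers was lower in the same libraries, as given above, as was the mitochondrial share, and their part in these changes was not tested. With only these 2 groups in the fit 8 members were lower, and *FGB*, *SERPINC1*, *SERPIND1* and *A2M* were no longer called (adjusted p from 0.0537 to 0.0568, edgeR). Some of these calls also hung on single libraries: leaving out 1 library at a time ended that of *FGB* in 8 of 8 fits, *A2M* in 5, *SERPINC1* in 4, *C3* in 2 and *FGG* and *SERPIND1* in 1 each (adjusted p from 0.0512 to 0.188, edgeR).

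*FGA* read 48.8, 31.3, 62.1 and 66.4 CPM with bortezomib and nelfinavir, 2.32-fold below bortezomib alone (log2 fold change -1.22, SE 0.14, adjusted p = 3.37e-08). *FGG* read 221, 193, 94.1 and 124 CPM (log2 fold change -0.68, SE 0.19, adjusted p = 0.00818) and *FGB* 484, 421, 448 and 469 CPM (log2 fold change -0.23, SE 0.08, adjusted p = 0.0207). The first 2 libraries were the higher ones for *FGG* and the lower ones for *FGA*. *FGG* was no longer called without the third library (adjusted p = 0.0540, edgeR), and the call of *FGB*, a small change, needed all 8 libraries. For every chain the 4 libraries with both drugs lay below the 4 with bortezomib alone, so that the order of the means was nelfinavir, DMSO, bortezomib, and both drugs. In *FGA* these means were 267 ± 19.5 CPM, 211 ± 19.2 CPM, 122 ± 14.1 CPM and 52.2 ± 15.8 CPM (SD, n = 4).

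*PROS1* read 14.2, 20.2, 11.98 and 17.6 CPM with both drugs (log2 fold change -0.997, SE 0.16, adjusted p = 1.27e-05), *TFPI* 118, 118, 106 and 113 CPM (log2 fold change -0.82, SE 0.09, adjusted p = 5.05e-08) and *F5* 69.96, 55.4, 51.3 and 66.3 CPM, against 96.5, 94.4, 110.05 and 96.8 CPM with bortezomib alone (log2 fold change -0.71, SE 0.11, adjusted p = 5.56e-06). In all 3 genes the groups were separate. *SERPIND1* read 11.6, 7.49, 11.8 and 20.5 CPM (log2 fold change -0.68, SE 0.19, adjusted p = 0.00632), where the fourth library overlapped bortezomib alone. *SERPINC1*, at 27.3, 31.3, 24.95 and 29.7 CPM (log2 fold change -0.42, SE 0.13, adjusted p = 0.0142), was below all bortezomib libraries, the opposite of its rise with nelfinavir alone, and *SERPINF2* did the same (log2 fold change -0.58, SE 0.12, adjusted p = 0.00033). In complement, *C1S* fell back to 0.634, 6.13, 6.09 and 8.07 CPM (log2 fold change -1.19, SE 0.31, adjusted p = 0.00391), the first library being far below the other 3. *ACTA2* fell too (log2 fold change -0.56, SE 0.13), and its relation to *C1S* was not tested. *C3* read 614, 604, 547 and 552 CPM (log2 fold change -0.27, SE 0.08, adjusted p = 0.00667), and *A2M* changed by -0.26 ± 0.08 with overlapping groups.

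Only *KNG1* and *C6*, a terminal component, were higher with both drugs than with bortezomib. *KNG1* read 1.902, 1.82, 1.38 and 3.94 CPM (log2 fold change 3.33, SE 0.75, adjusted p = 0.000659), near or above the DMSO libraries. *C6* had 0 reads in the bortezomib libraries and 3, 4, 3 and 0 reads with both drugs, at least 3.27-fold higher when the floor of 3 reads over the group is set for bortezomib, and its call was marginal (adjusted p = 0.0466). It was lost when replicate numbers were used as a block (adjusted p = 0.0572) and without any 1 library of either group but the fourth of both drugs (adjusted p from 0.0652 to 0.0871, edgeR), which left *KNG1* as the only higher member without the first or the third library of both drugs, or the first or the second of bortezomib. Without the fourth library of both drugs or of bortezomib, 3 members were higher. For *SERPING1* (C1 inhibitor), not tested, the libraries of both drugs held 0, 2, 8 and 2 reads and those of bortezomib 0.

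Whether nelfinavir acted differently with and without bortezomib was tested as an interaction, the difference between both nelfinavir effects. It was negative for 12 members and positive for 1, against 10% and 9.74% of all genes, with a median of -0.37 over the members and -0.02 over all genes. The strongest were *SERPINC1* (interaction -1.69, SE 0.18, adjusted p = 8.87e-09) and *FGA* (interaction -1.55, SE 0.19, adjusted p = 1.45e-07), followed by *C1S* (interaction -1.44, SE 0.44, adjusted p = 0.0179), *F7* (interaction -1.13, SE 0.28, adjusted p = 0.00354) and *SERPINF2* (interaction -1.01, SE 0.16, adjusted p = 2.68e-05). *FGG*, *FGB*, *F5*, *PROC*, *PROS1*, *A2M* and *C3* made up the rest, from -0.93 to -0.62. *CPB2* was the positive one (interaction 1.39, SE 0.31, adjusted p = 0.0014): nelfinavir lowered it from DMSO, whereas on bortezomib it read 15.9, 12.5, 11.8 and 6.38 CPM and was not called (0.50 ± 0.25). In *F7* the log2 fold change with nelfinavir was 1.21 ± 0.19 without and 0.08 ± 0.20 with bortezomib. Of the markers, HNF4A (interaction -1.14, SE 0.16), APOB (interaction -0.68, SE 0.15) and *ACTA2* (interaction -0.998, SE 0.19) were called. The other hepatocyte markers were not, and the part of the markers in the members' results was not tested. *TFPI* was not called for the interaction (-0.04, SE 0.13, adjusted p = 0.871), its fall with nelfinavir being -0.78 ± 0.09 without and -0.82 ± 0.09 with bortezomib.

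These 2 nelfinavir comparisons share no library. Of the 10 members raised by nelfinavir alone and the 12 lowered by it on bortezomib, 5 were the same genes (*FGB*, *SERPINC1*, *SERPINF2*, *A2M* and *C3*), and 0.891% of all genes were called in both ways. The overlap depended on single libraries: it was 2 to 4 genes without any 1 library of bortezomib or of both drugs, 3 with no filter or only the groups compared, and 6 with the replicate block or thinned libraries. *SERPINF2* was in it in each of these settings, and left it without the third nelfinavir library. By sign alone, 16 of the 35 members were higher with nelfinavir and lower on adding it to bortezomib, 9 were higher in both, 8 lower in both and 2 lower and then higher.

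**Figure D3:**
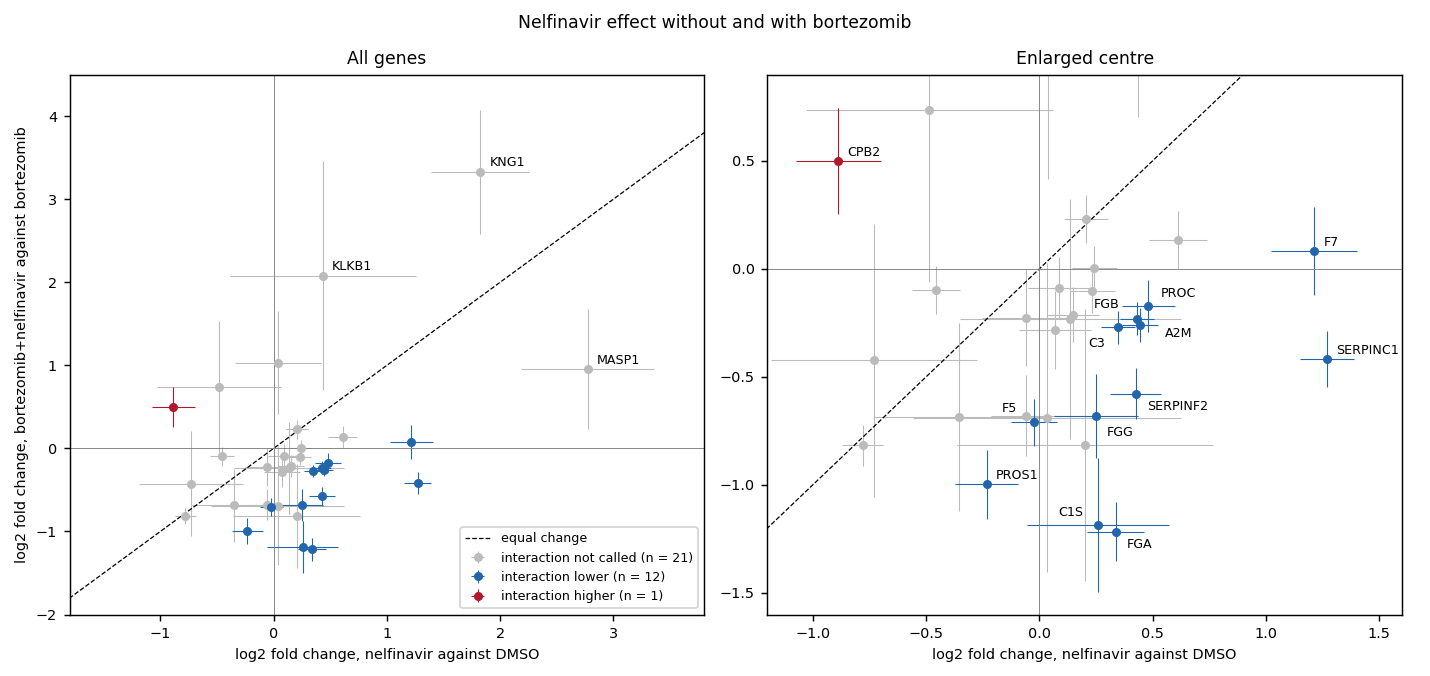
Log2 fold change with nelfinavir against DMSO (x axis) and with bortezomib and nelfinavir against bortezomib (y axis) for 34 members, with standard errors, in full and with the centre enlarged; the dashed line marks equal change and *C6*, without reads in bortezomib, is left out. The 12 members with a negative interaction (blue) lie below the line, *SERPINC1* and *F7* furthest to the right and *FGA* and *C1S* lowest, and *CPB2* (red) lies above it.

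**Figure D4:**
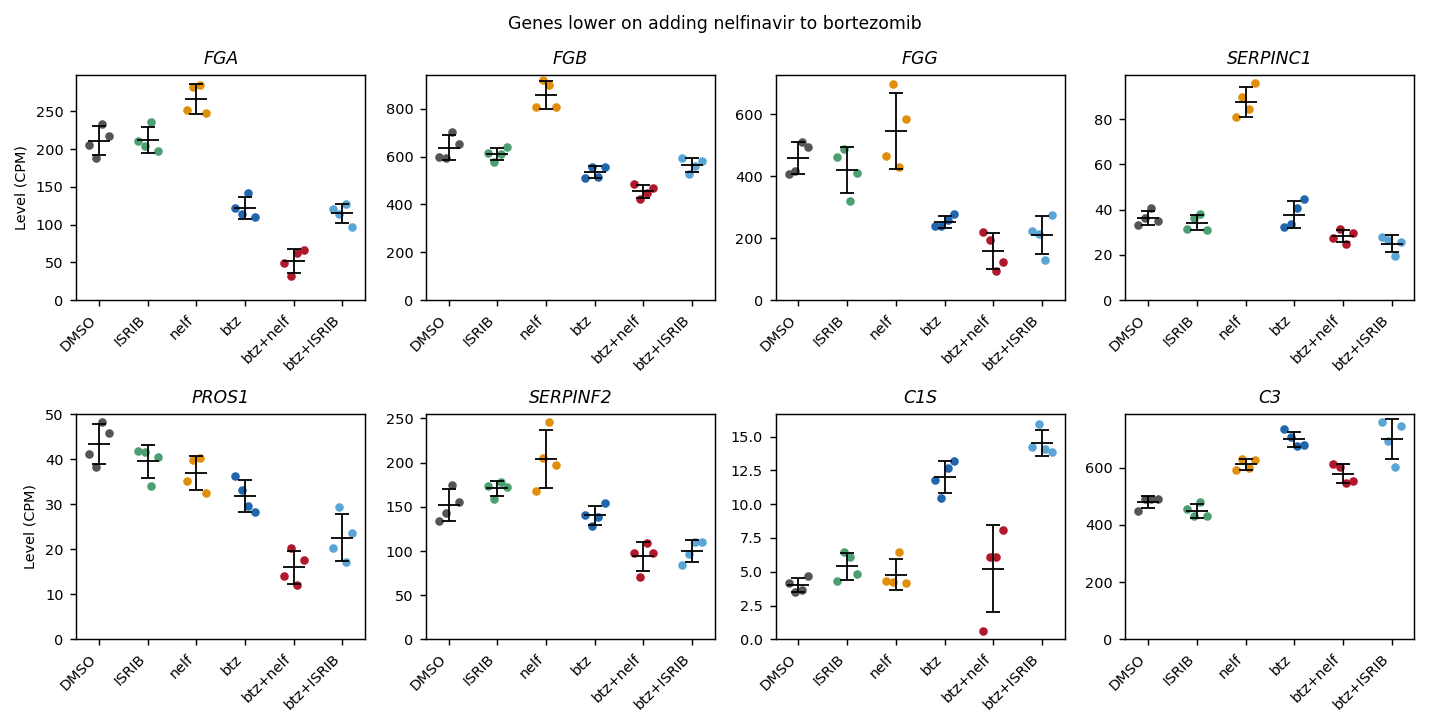
Levels (TMM-scaled CPM, linear axes from 0) of 8 genes that were lower on adding nelfinavir to bortezomib, per library in the 6 groups (btz, bortezomib; nelf, nelfinavir), with mean ± SD of 4. *SERPINC1* and *FGB* are highest with nelfinavir alone, and *FGA* and *PROS1* are lowest with both drugs.

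With ISRIB added to bortezomib, 4 members were higher than with bortezomib alone and 6 were lower, against 6.91% and 5.34% of all genes. The members' median log2 fold change was 0.00, beside 0.01 for all genes, and no called change of a member reached 2-fold. Separate libraries were seen for 3 higher and 4 lower members, against 6.5% and 5.98% of all genes. Of the 5 anticoagulants, 2 were called upwards and 3 downwards, but 3 of these calls, for *SERPIND1*, *PROS1* and *PROC*, were lost without certain single libraries. The 4 higher members (*CPB2*, *SERPIND1*, *CFI* and *TFPI*) were among the 16 that bortezomib lowered, but both comparisons use the same bortezomib libraries. Cell type markers moved here as well. Of the hepatocyte markers AFP (0.56, SE 0.13), TTR (0.80, SE 0.12) and APOA1 (0.22, SE 0.07) were higher and HNF4A (-0.44, SE 0.12) and APOB (-0.52, SE 0.10) lower, with summed levels of 7789 to 9151 CPM that overlapped bortezomib alone. Of the cholangiocyte markers, KRT19 was higher on 41 reads against 10 (2.08, SE 0.71). EPCAM, far more abundant, leaned the other way without being called (-0.20, SE 0.10), and KRT7 had 0 reads in both groups. Of the stellate or fibroblast markers, *ACTA2* was lower (-0.84, SE 0.13), while *COL1A1* had 9 reads against 0 in bortezomib. The part of these changes in those of the members was not tested.

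*TFPI* read 279.6, 253, 239.8 and 271 CPM with bortezomib and ISRIB, against 205, 198, 217 and 182 CPM with bortezomib alone (log2 fold change 0.38, SE 0.09, adjusted p = 0.00522). *SERPIND1* read 26.9, 28.9, 26.95 and 38.3 CPM (log2 fold change 0.54, SE 0.17, adjusted p = 0.0392). Both were above every bortezomib library and below every DMSO library. *CFI* read 109.5, 102, 74.1 and 105 CPM (log2 fold change 0.45, SE 0.11, adjusted p = 0.00657), with the third library inside the bortezomib range, and *CPB2* 12.5, 11.9, 14.5 and 15.3 CPM (log2 fold change 0.73, SE 0.24, adjusted p = 0.0437), where the fourth bortezomib library overlapped. *SERPIND1* and *CPB2* lost their calls in 5 and 6 of the 8 fits that left out 1 library, among them those without the fourth library of bortezomib with ISRIB (adjusted p = 0.165 and 0.0993, edgeR), and with only these groups in the fit. The number of higher members was 2 in those settings and also without any 1 of the first 3 libraries of bortezomib.

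The other 6 called members were lower. *F7* read 10.9, 7.33, 9.896 and 14.8 CPM with bortezomib and ISRIB, against 27.8, 19.2, 11.8 and 15.99 CPM with bortezomib alone (log2 fold change -0.81, SE 0.22, adjusted p = 0.0118), and the groups overlapped. *SERPINC1* read 28.1, 26.8, 19.4 and 25.7 CPM (log2 fold change -0.60, SE 0.13, adjusted p = 0.00195) and *F5* 69.2, 73.3, 66.7 and 76.03 CPM (log2 fold change -0.48, SE 0.11, adjusted p = 0.00227), both below all bortezomib libraries and all DMSO libraries. *PROS1* read 20.3, 29.3, 17.3 and 23.7 CPM (log2 fold change -0.49, SE 0.16, adjusted p = 0.0324), with overlap. *SERPINF2* read 83.7, 96.8, 109.9 and 111 CPM, against 141, 129, 138 and 155 CPM (log2 fold change -0.49, SE 0.12, adjusted p = 0.00502), and *PROC* 105, 92.4, 137 and 102 CPM (log2 fold change -0.44, SE 0.12, adjusted p = 0.0123), in both genes without overlap. *PROS1* was not called without the first or the third library of bortezomib with ISRIB or the first or the second of bortezomib, *F7* without the second and the first of these groups, and *PROC* without the second and the fourth (adjusted p from 0.0502 to 0.108, edgeR). *PROS1* and *F7* were not called either with only these groups in the fit (adjusted p = 0.0984 and 0.0625, edgeR). Without the second library of bortezomib with ISRIB or the first of bortezomib, 4 members were lower. The fibrinogen chains were not called, at -0.08 ± 0.13 for *FGA*, 0.08 ± 0.08 for *FGB* and -0.27 ± 0.19 for *FGG*. *C3* had a log2 fold change of 0.00 ± 0.08, and *C1S*, at 14.2, 15.9, 14.1 and 13.8 CPM, was above all bortezomib libraries without passing the test (log2 fold change 0.27, SE 0.28, adjusted p = 0.583). *ACTA2* was lower in this comparison, and its relation to *C1S* was not tested.

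Set side by side, the 2 additions to bortezomib gave opposite calls for *TFPI* (-0.82 with nelfinavir, 0.38 with ISRIB) and *SERPIND1* (-0.68 and 0.54). *F5* (-0.71 and -0.48), *PROS1* (-0.997 and -0.49), *SERPINC1* (-0.42 and -0.60) and *SERPINF2* (-0.58 and -0.49) were lower in both, with the calls of *PROS1*, *SERPINC1* and *SERPIND1* subject to the single libraries named. These comparisons share the bortezomib libraries.

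The interaction of ISRIB with bortezomib, which asks whether ISRIB acted differently with bortezomib than on DMSO, was called for 3 members, 2 higher and 1 lower, against 2.93% and 1.89% of all genes. *CFI* (interaction 0.65, SE 0.15, adjusted p = 0.00795) and *TFPI* (interaction 0.53, SE 0.13, adjusted p = 0.0119) were higher and *SERPINF2* was lower (interaction -0.66, SE 0.16, adjusted p = 0.0138). *PROC* was negative as well in 5 other settings that kept all libraries, among them DESeq2 (adjusted p = 0.0288), which also called *SERPINC1* (adjusted p = 0.0349).

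**Figure D5:**
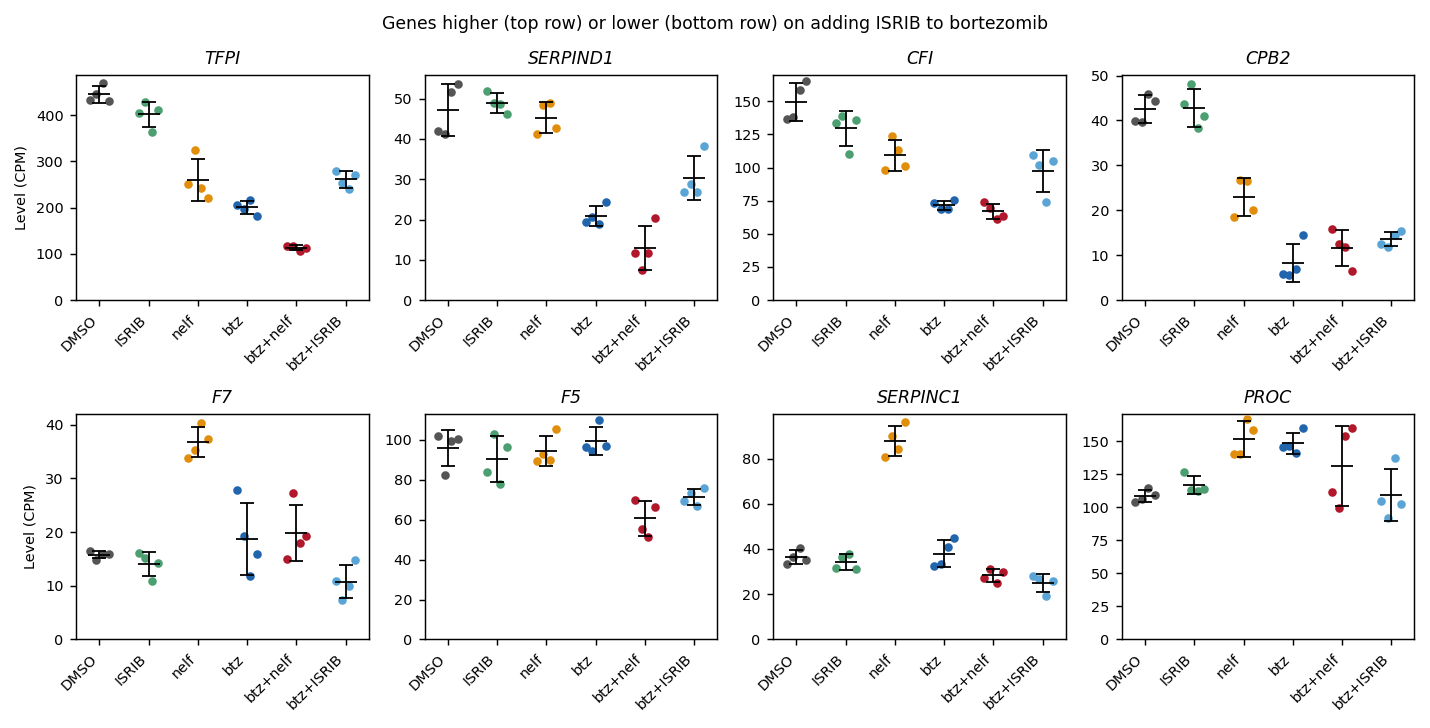
Levels (TMM-scaled CPM, linear axes from 0) of 4 genes that were higher (top) and 4 that were lower (bottom) on adding ISRIB to bortezomib, per library in the 6 groups (btz, bortezomib; nelf, nelfinavir), with mean ± SD of 4. The means of *TFPI*, *SERPIND1*, *CFI* and *CPB2* in bortezomib with ISRIB lie between those of bortezomib and DMSO, with single libraries of *CFI* and *CPB2* overlapping bortezomib. *F7* and *SERPINC1* are highest with nelfinavir alone.

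Among the 35 tested members, 7 were called in none of the 7 comparisons, namely *F2*, *F12*, *KLKB1*, *VTN*, *C1R*, *CFB* and *C8B*. Prothrombin (*F2*) was the best measured of them, with mean levels from 352 ± 47.7 CPM in bortezomib with ISRIB to 466 ± 41.9 CPM in nelfinavir, and log2 fold changes from -0.24 to 0.24 over the 7 comparisons. Scaled by total counts alone, *F2* was called lower with bortezomib (log2 fold change -0.54, adjusted p = 3.36e-05, edgeR). *VTN* had 27.7 ± 2.31 CPM in DMSO and 39.2 ± 7.75 CPM in bortezomib with ISRIB. *F12*, *KLKB1*, *CFB*, *C1R* and *C8B* each averaged below 4 CPM in every group, so that small changes were not detectable at this depth.

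Beyond the members, 60 other genes of the cascades and of clotting-factor processing were listed, of which 35 were tested. With bortezomib 9 of them (25.7%) were higher and 11 (31.4%) lower, near the 27.6% and 25.8% of all genes. With nelfinavir 8 (22.9%) and 4 (11.4%) were called, against 10.4% and 8.84%, and with ISRIB 0 and 0. On adding nelfinavir to bortezomib 6 (17.1%) were higher and 7 (20.0%) lower, against 15.6% and 13.4%, and on adding ISRIB 8 (22.9%) and 1 (2.86%), against 6.91% and 5.34%. Among these, bortezomib raised *SERPINE2* (protease nexin 1, log2 fold change 1.99 ± 0.21), the membrane complement regulator *CD55* (1.71 ± 0.17), the receptor *F2RL1* (1.70 ± 0.48) and clusterin (*CLU*, 1.65 ± 0.09). It lowered *CFD* (factor D, -1.98 ± 0.78), *SERPINA10* (-1.69 ± 0.19), *C1RL* (-1.32 ± 0.18), the carboxypeptidase N subunit *CPN1* (-1.31 ± 0.23) and the plasminogen-binding annexin *ANXA2* (-1.26 ± 0.12).

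Nelfinavir alone also raised *CD55* (1.05 ± 0.17), *SERPINE2* (0.88 ± 0.21), the propeptide-cleaving protease *FURIN* (0.77 ± 0.13) and *MCFD2* (0.50 ± 0.09), which with *LMAN1* carries factors V and VIII out of the endoplasmic reticulum. It lowered the thrombin receptor *F2R* (-0.54 ± 0.19), *S100A10* (-0.40 ± 0.12) and the complement regulators *CD46* (-0.35 ± 0.10) and *CD59* (-0.32 ± 0.08). On bortezomib it raised *SERPINE2* (1.54 ± 0.18), *FURIN* (0.80 ± 0.13), the protein disulphide isomerase *P4HB* (0.77 ± 0.08) and *LMAN1* (0.52 ± 0.09). The carboxypeptidase N subunits went apart, *CPN1* higher (0.64 ± 0.25) and *CPN2* lower (-0.73 ± 0.12). Nelfinavir also lowered *SERPINA10* (-1.21 ± 0.24), *C1RL* (-1.05 ± 0.22), the complement regulator *CD59* (-0.85 ± 0.08) and *GGCX*, the vitamin K-dependent γ-glutamyl carboxylase (-0.73 ± 0.12). With bortezomib and ISRIB, *P4HB* (0.54 ± 0.08), *S100A10* (0.76 ± 0.12), *SERPINE2* (0.65 ± 0.18) and *VKORC1*, the vitamin K epoxide reductase (0.47 ± 0.10), were higher than with bortezomib, and *CD59* was lower (-0.28 ± 0.08). *PLAU*, the urokinase gene, was called higher on 25 reads against 3 in bortezomib. Of 9 genes for carboxylation, processing and export, 4 were higher with bortezomib and 0 lower, against 27.6% and 25.8% of all genes, and 4 were higher with nelfinavir and 0 lower, against 10.4% and 8.84%.

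Some members share sequence with a neighbour, so that their reads may not be theirs alone. In the last 500 bases of the transcript, where 3′ libraries are read, *CFB* matched a read-through transcript over 464 bases, *VTN* another gene over 337 bases, *KLKB1* another over 498 bases, and *A2M* its antisense gene over 134 bases. *CFI* shared 85 bases and *F10* 98 bases with another gene. By position, the last 500 bases of *C2* also overlapped exons of *CFB* and of the read-through gene on the same strand. Those of *F12* overlapped exons of *GRK6* on the opposite strand. Neither overlap appeared in the sequence search, which required at least 80 bases. No source used here states whether counting used the strand, and reads of *A2M* and of its antisense partner then cannot be told apart.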

How the data were processed

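Poly(A) RNA of HepG2 cells was profiled with QuantSeq 3′ FWD libraries (80 bp single-end reads). The authors trimmed the reads with cutadapt 2.8, aligned them to hg19 with STAR (nf-core pipeline 1.4.2) and counted them on Ensembl release 87 genes. As deposited, the values are raw read counts per gene. Which program counted, and whether strand or molecular identifiers were used, is not given in the sources used here. Reads from the 3′ end do not scale with transcript length.

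Counts of all 24 libraries (5154533 to 6943164 per library, which bounds the precision of low genes) were fitted in 1 edgeR 4.0.16 model (R 4.3.3) with TMM factors, a minimum count of 5 and a minimum total of 25, and 5 contrasts and 2 interactions were tested with the quasi-likelihood test and Benjamini-Hochberg adjustment over 12685 genes. The code was tested on simulated data. SE is the absolute log2 fold change before edgeR's shrinkage, divided by the square root of F. The log2 fold changes given are those after shrinkage, which differ most for genes with few reads. Alternatives were library totals alone, RLE and upper-quartile factors, no filter, edgeR's default filter, DESeq2 1.42.0, only the groups compared, a replicate block, thinned libraries and leaving out each library. Deviations of libraries from their group means correlated above 0.1 in 10 of 60 same-numbered pairs across groups, against 7 of 180 pairs with other numbers. The median correlations were 0.013 and -0.0064. Some same-numbered libraries thus deviated together. Pairing was taken only where every such pair exceeded 0.1, so the main fit did not pair them. Shared 3′ ends were found with BLAST 2.17.0 (37 members compared, at least 80 bases and 97% identity). Promoters came from RefSeq (GRCh38.p14).

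Library values are given for the fibrinogen chains and for up to 6 called members per direction and comparison with the largest absolute log2 fold change, and up to 5 other pathway genes are named by the same order. An item of the pathway list is counted there but not reported here by name. Members, lists and rules were chosen with earlier results of these data known. Counts of called members are set beside the share of all genes called.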

Additional observations from a re-analysis of the deposited data

Results flagged for a closer look

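In 209 groups of 4 libraries, 11 held a library whose gap to the nearest of the others exceeded Dixon's 95% critical value for 4 values, where chance gives about 1 in 20, or 10.45. In the levels (CPM), *F5* was low in DMSO replicate 2 (82.1) and high in bortezomib replicate 3 (110.05), *F11* low in DMSO replicate 3 (17.6), *C3* low in DMSO replicate 1 (449) and *C2* low in bortezomib+nelfinavir replicate 2 (49.0). High libraries were *PROC* in ISRIB replicate 1 (127), *CPB2* in bortezomib replicate 4 (14.5), *C1S* in nelfinavir replicate 3 (6.49), *MASP1* in bortezomib replicate 4 (0.648) and *C6* in bortezomib+ISRIB replicate 4 (0.494). *F12* had 0 reads in bortezomib+ISRIB replicate 2. Without bortezomib replicate 4, *CPB2* was called higher on adding nelfinavir to bortezomib (log2 fold change 0.95).

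The effect of nelfinavir differed with and without bortezomib, by the interaction test, for 13 members. The log2 differences were -1.69 for *SERPINC1*, -1.55 for *FGA*, -1.44 for *C1S*, -1.13 for *F7*, -1.01 for *SERPINF2*, -0.93 for *FGG*, -0.76 for *PROS1*, -0.70 for *A2M*, -0.69 for *F5*, -0.66 for *FGB*, -0.65 for *PROC*, -0.62 for *C3* and 1.39 for *CPB2*. The effect of ISRIB differed for *TFPI* (0.53), *CFI* (0.65) and *SERPINF2* (-0.66). Of these, *C1S* was no longer called without nelfinavir replicate 3 (adjusted p = 0.0523, edgeR). The causes were not tested.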

How the results depend on the processing

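RLE and upper-quartile factors, DESeq2, the default filter and thinned libraries changed 1, 1, 2, 1 and 2 of the members' calls. Over the 7 comparisons, 2, 5, 1, 0 and 7 log2 fold changes turned sign in them, all of them uncalled and below 0.06 in size with TMM and all libraries. Library totals alone turned 10 log2 fold changes with bortezomib, of which 5 also changed their call, to -0.45 for *F5*, -0.44 for *SERPINC1*, -0.15 for *C2*, -0.11 for *C5* and -0.049 for *PROC*. The median of all genes moved with them, by -0.50, and 19.2% of all calls were then higher, against 51.6% with TMM. That scaling gave 1 higher member with bortezomib and 2 on adding ISRIB to bortezomib, as did the fit with only the groups compared (2). For nelfinavir on bortezomib, 4 members were higher with no filter and 1 with the default filter, with only the groups compared, with the replicate block and after thinning. The negative ISRIB interactions numbered 2 with no filter, the default filter, only the groups compared and the replicate block, and 3 with DESeq2. Replicate numbers were not used in the main fit, although some same-numbered libraries deviated together. Besides these counts, the replicate block added *FGA* and *F2* for nelfinavir (12 higher) and *SERPIND1* for the nelfinavir interaction (13 lower), and it removed *C6*.

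Without 1 library at a time, the higher and lower members ranged from 4 to 5 and 14 to 16 with bortezomib, from 9 to 10 and 3 to 3 with nelfinavir, and from 0 to 0 with ISRIB. On bortezomib, they ranged from 1 to 3 and 9 to 11 for nelfinavir and from 2 to 4 and 4 to 6 for ISRIB, and the interactions from 1 to 1 and 11 to 13 for nelfinavir and from 2 to 3 and 1 to 2 for ISRIB. Depth limits the genes below about 1 CPM (*KLKB1*, *MASP1*, *C6* and *C8B* in DMSO), for which a few reads decide.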

Other observations

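The genes under the filter had too few reads for a test. *C9* had 8 reads over all libraries, 4 of them in ISRIB and 0 in DMSO. *SERPING1* had 21 reads, 12 of them in bortezomib+nelfinavir, 0 in bortezomib and 2 in DMSO. *F13B* had 8 reads.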
